A study of Mus musculus with 6 samples.

Results

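The genes described here are the cytosolic ribosomal protein genes of the mouse. They were taken by name: protein-coding genes whose GENCODE symbol is Rpl or Rps with a number, together with *Rplp0*, *Rplp1*, *Rplp2* and *Rpsa*, and without the Rps6k kinases and *Rps19bp1*. The rule found 85 genes among the 31053 listed in every library, 52 of the large and 33 of the small subunit, on 19 chromosomes. They were followed in primary cortical neurons from C57BL/6J embryos of embryonic day 18, which were treated with floxuridine against dividing cells, infected with AAV at day in vitro (DIV) 6 and collected at DIV 14 after 48 h of doxycycline (Dox) at 1 μg per ml. The neurons carried 1 of 2 Ribo-STAMP constructs under Tet-On control, with the reverse transactivator driven by the human synapsin promoter, and 3 libraries were made with RPL10A-STAMP against 3 with RPL22-STAMP. In both, rAPOBEC1, an enzyme that deaminates cytidine in RNA to uridine, is fused to a protein of the large subunit: the mouse *Rpl10a* reading frame follows APOBEC1 in one and the *Rpl22* reading frame precedes it in the other. Uninfected neurons and the RPS2-STAMP variant were not analysed here, so every value is a level under one of 2 editors, with no background to set beside it.

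Ribosomal proteins are made in equal amounts for the 2 subunits of the ribosome, in which RPL proteins surround the RNA that forms peptide bonds and RPS proteins surround the decoding centre. Their mRNAs are short, abundant and known for a 5′ terminal oligopyrimidine (TOP) tract, a C at the cap followed by a run of pyrimidines, through which growth signals switch their translation. Many of these genes also have processed pseudogenes, copies of the mRNA inserted elsewhere in the genome, and in neurons their mRNAs are among those found in dendrites and axons.

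The readout was the number of C-to-U edits per read (EPR) that the authors computed for each gene. Genes with EPR above 0 are referred to as edited. The reads behind each ratio are unknown, and a value of 0 can mean no edits or no reads. Because the ratio divides edits by reads, a gene with few reads can count as edited only at a high value. How much this bears on the level of the members, set against other edited genes, was not tested.

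Start sites and near-identical copies were read from the genome because they bear on which RNA a value belongs to. RefSeq gave an annotated start for 65 of the 85 genes, and 13 of these (20%) began with C and at least 5 pyrimidines in a row, against 150 of 6343 tested genes (2.36%) and 823 of all 32851 promoters (2.51%). Each line shows 30 bases, from 10 before to 20 from the annotated start on, 5′ to 3′ on the gene's strand, with the pyrimidine run that starts at that base in capitals. *Rpl15* has the longest run that begins with C at the annotated start. *Rps18* and *Rps6* are long runs of the small subunit, and *Rps27* and *Rps27rt* are the copies whose values differ below. *Rpl10a*, the gene in one construct, has none at its annotated start.
*Rpl15* (GRCm38, chr14:18270967-18270996, minus strand): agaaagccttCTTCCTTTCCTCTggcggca
*Rps18* (chr17:33955646-33955675, minus strand): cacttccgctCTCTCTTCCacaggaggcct
*Rps6* (chr4:86857348-86857377, minus strand): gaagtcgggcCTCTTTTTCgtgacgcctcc
*Rps27* (chr3:90213629-90213658, minus strand): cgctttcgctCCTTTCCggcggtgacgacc
*Rps27rt* (chr9:114982720-114982749, minus strand): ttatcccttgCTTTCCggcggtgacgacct
*Rpl10a* (chr17:28328555-28328584, plus strand): atttgagcgcatgcgcaaagcgctctgcct
A match is a description of the annotated start only, and annotated starts can lie off the cap site. The RefSeq start of *Rpl15* was 81 bases from the GENCODE start of the gene, and that of *Rpl10a* was 3 bases away.

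Copies within the group are shown by *Rps27* with *Rps27rt* and *Rpl36a* with *Rpl36al*. The coding sequences of *Rps27* and *Rps27rt* were identical over all 252 bases, and their first 30 bases are shown. *Rpl36a* and *Rpl36al* shared 279 of 318 coding bases (87.7%), and bases 151 to 180 are shown with the differing bases in capitals.
*Rps27*: atgcctctcgcaaaggatctccttcatccc
*Rps27rt*: atgcctctcgcaaaggatctccttcatccc
*Rpl36a*: cagacTaagccTatTttCcgCaaAaaggcT
*Rpl36al*: cagacAaagccAatCttTcgAaaGaaggcC
A read from the coding part of *Rps27* has no base that tells it from *Rps27rt*, while a read over these 30 bases of *Rpl36a* has several. *Rpl10* and *Rpl10a*, which are unrelated genes with similar names, were identical at 48.5% of aligned coding positions, and *Rpl22* and its paralog *Rpl22l1* at 67.5%.

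In each library, most ribosomal protein genes were edited, and at a low level. The number of edited members was 76, 76 and 80 of 85 in the RPL10A-STAMP libraries and 80, 81 and 72 in the RPL22-STAMP libraries, which is 84.7% to 95.3% per library against 31.9% to 36.1% of all listed genes. The median EPR of edited members was 0.00600, 0.00696 and 0.00637 with RPL10A-STAMP against 0.00484, 0.00598 and 0.00566 with RPL22-STAMP. The median of all edited genes was 0.0118, 0.0148 and 0.0154 with RPL10A-STAMP against 0.00907, 0.0125 and 0.0114 with RPL22-STAMP, so the members' median lay below it in each of the 6 libraries. With RPL10A-STAMP the ratio of the 2 medians was 0.464 ± 0.0479 (SD, n = 3), with RPL22-STAMP it was 0.504 ± 0.0278 (SD, n = 3), and the libraries of the variants overlapped (0.414 to 0.509 and 0.479 to 0.534). Between 76.4% and 86.8% of the edited members lay below the median edited gene of their library.

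**Figure D1:**
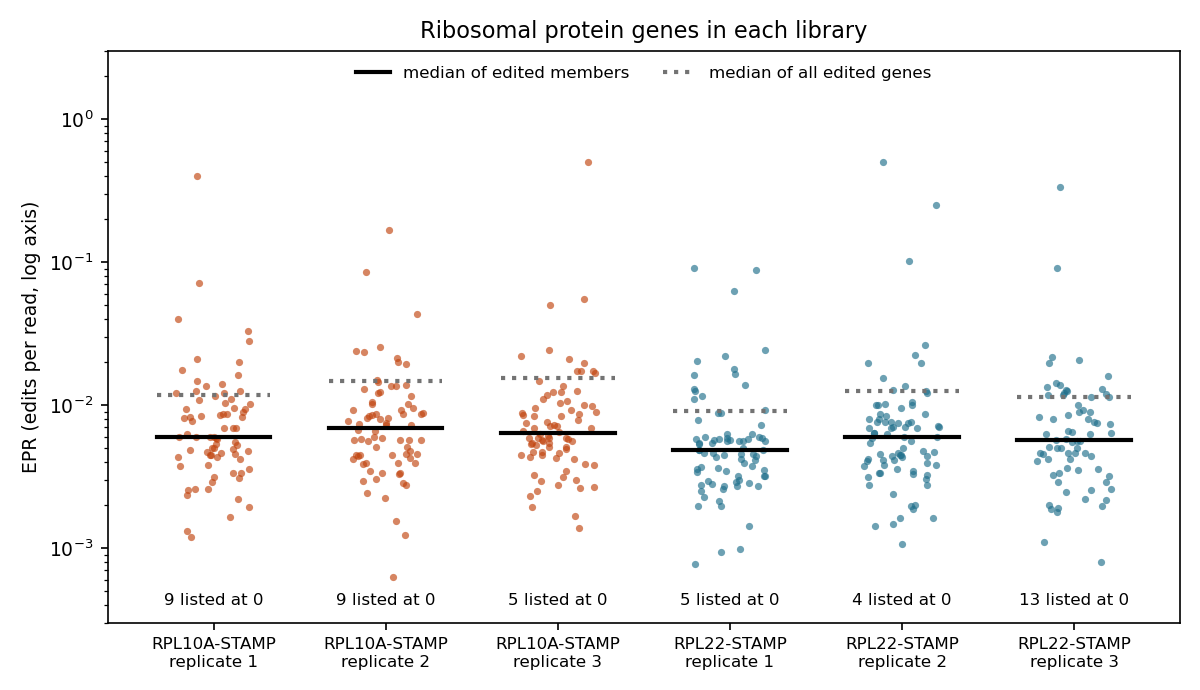
EPR of the edited ribosomal protein genes (points, log axis) in each of the 6 libraries, with the median of edited members (black line), the median of all edited genes (dotted line) and the number of members listed at 0. The black line lies below the dotted line in each library, and 4 to 13 members were listed at 0.

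For comparisons between libraries, values were scaled so that the 8046 genes with edits in all 6 libraries had the same median in each, the geometric mean of the 6 library medians, and these are given as scaled EPR. Of the 85 members, 66 were edited in all 6 libraries. Their median scaled EPR, averaged over the libraries, lay above that of 10.7% of the 8046 genes, and 49 of the 66 members (74.2%) fell in the lowest 25% of those genes. Both subunits lay low: the median large subunit member was above 12.2% of the tested genes and the median small subunit member above 8.82%. The median EPR of the 38 large subunit members was 0.00705 ± 0.000538 with RPL10A-STAMP against 0.00558 ± 0.000727 with RPL22-STAMP (SD, n = 3 each). That of the 28 small subunit members was 0.00637 ± 0.000218 and 0.00529 ± 0.000394 (SD, n = 3 each).

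**Figure D2:**
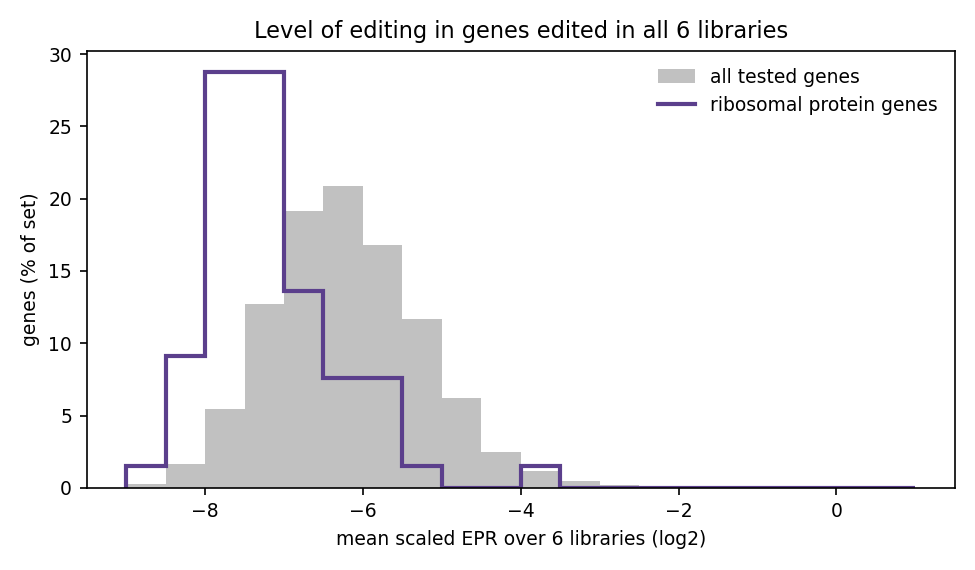
Share of genes (vertical axis, percent of each set) by mean scaled EPR over the 6 libraries (horizontal axis, log2, bins of 0.5), for the 66 ribosomal protein genes edited in all 6 libraries (line) and all 8046 such genes (filled). The members' distribution is shifted to lower values, and 1 gene, *Rpl13a*, stands apart at the right.

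Among the 66 members edited in all 6 libraries, levels spread over a 34.3-fold range from *Rps12*, the lowest, to *Rpl13a*, the highest. *Rpl13a*, a large subunit protein known also as part of a complex that silences inflammatory mRNAs, had an EPR of 0.0712, 0.0854 and 0.0498 with RPL10A-STAMP against 0.0881, 0.102 and 0.0909 with RPL22-STAMP. Its mean scaled EPR was above that of 98.3% of the tested genes, and 29.4% of its exon bases are shared on the same strand with *Gm45713*, a gene from which its reads may not be told apart. *Rpl10a* came second (86.7%), followed by *Rpl27a* (75.4%), *Rpl30* (71.6%), *Rpsa* (68.6%), *Rps2* (68.2%), *Rpl15* (65.2%) and *Rps28* (53.5%). From *Rpl27a* to *Rpl15* neighbours in this order overlapped: *Rpl27a* read 0.0135 to 0.0263 over the 6 libraries, *Rpl30* 0.0130 to 0.0220, and *Rpl15* 0.0110 to 0.0236. At the lower end, *Rpl11*, which can bind and block MDM2 when ribosome assembly fails, read 0.00132 to 0.00591, *Rpl21* 0.00178 to 0.00509, *Rps13* 0.00110 to 0.00496, *Rps14* 0.000767 to 0.00469 and *Rps12* 0.000979 to 0.00335. The ranges of these 5 genes overlapped.

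Members tended to keep their order from library to library. Across the 66 members, Spearman's rho between 2 libraries averaged 0.615 within RPL10A-STAMP, 0.621 within RPL22-STAMP and 0.539 between the variants (3, 3 and 9 pairs). Across all 8046 genes the averages were 0.792, 0.692 and 0.549. These are correlations across genes, which are not independent replicates, and the points of a pair share their libraries. The median coefficient of variation of scaled EPR over 3 libraries was 26.4% for members and 23.8% for all tested genes with RPL10A-STAMP, while with RPL22-STAMP it was 30.5% and 28.2%.

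The comparison of the variants asked whether EPR of these genes differed between the 2 constructs. The constructs differ in the ribosomal protein and in its side of APOBEC1, and these cannot be told apart here. In the limma fit over all 8046 genes, on log2(scaled EPR + 0.01), 14.3% of genes passed an adjusted p (Benjamini-Hochberg) of 0.05, 8.51% with the higher level under RPL10A-STAMP and 5.77% under RPL22-STAMP. Of the 66 members, 2 passed (3.03%), *Rpl39* and *Rps27a*, both higher with RPL22-STAMP, and none passed in the other direction. These calls and their direction depended on the processing: neither gene passed, and other members passed as higher with RPL10A-STAMP, with no scaling (3: *Rpl35*, *Rps19* and *Rpl10a*), with the trend with GC content removed (2: *Rps19* and *Rpl29*) and with the trend with transcript length removed (4: *Rps19*, *Rpl4*, *Rpl29* and *Rpl10a*), while with the replicate block 0 members passed. An unadjusted p under 0.05 was found for 12 of 66 members and 2486 of 8046 genes. The median log2 fold change, RPL10A-STAMP over RPL22-STAMP, was -0.008 for members and -0.012 for all tested genes. The 0.01 added to each value is above the EPR of most members, so it shrinks their fold changes more than those of other genes. The median absolute log2 fold change was 0.11 for members and 0.28 for all tested genes with 0.01 added, 0.29 and 0.50 with 0.001 added, and 0.36 and 0.56 with nothing added, a setting chosen after seeing the data. A log2 fold change over 1 in either direction was found for 0 of 66 members and 517 of 8046 genes with 0.01 added, for 6 members and 1559 genes with 0.001, and for 7 members and 1890 genes with nothing added. With 0.001 added the 6 members were *Rps27a* (-1.37), *Rps21* (-1.26), *Rps19* (1.05), *Rps26* (1.04), *Rpl35* (1.06) and *Rpl28*, and with nothing added *Rpl39* (-1.08) joined them and *Rps27a* was at -1.75.

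Counted by their libraries, 16 of the 66 members (24.2%) had scaled values that did not overlap between the variants, against 37.1% of all tested genes. The variant with the higher values was RPL10A-STAMP for 10 of them and RPL22-STAMP for 6, where 20% and 17.1% of all tested genes did not overlap in these directions. The median width of the 95% confidence interval of the log2 fold change was 0.72 for members and 0.83 for all tested genes with 0.01 added, and 2.06 and 1.70 with nothing added. Per subunit, 1 of 38 large and 1 of 28 small subunit members passed, with median log2 fold changes of -0.008 and -0.010.

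**Figure D3:**
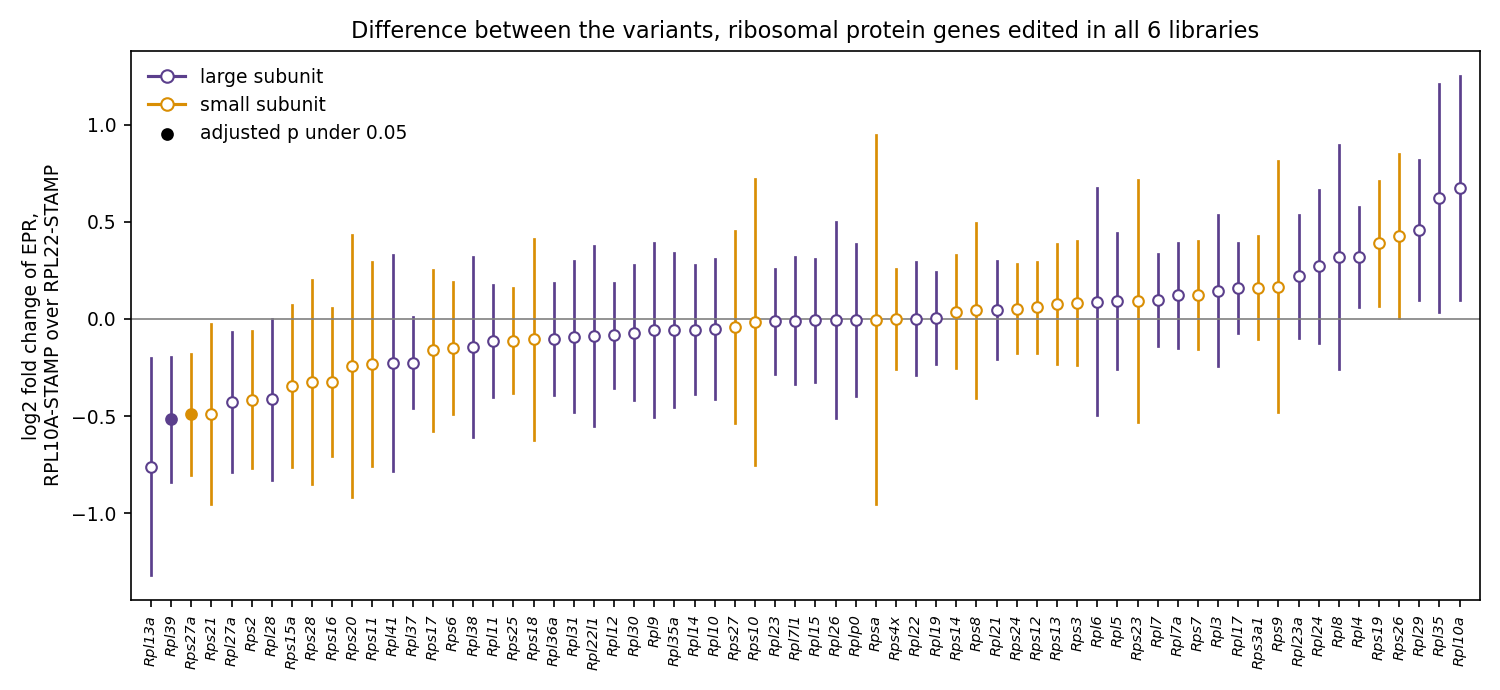
Log2 fold change of EPR, RPL10A-STAMP over RPL22-STAMP, of the 66 ribosomal protein genes edited in all 6 libraries, with 95% confidence intervals from limma, on log2(scaled EPR + 0.01). Filled points (*Rpl39* and *Rps27a*) passed an adjusted p of 0.05, and the values run from -0.76 (*Rpl13a*) to 0.68 (*Rpl10a*).

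*Rpl39* (ENSMUSG00000079641, chrX:37082520-37085402, minus strand) encodes a very small protein that lines the exit tunnel of the large subunit. Its EPR was 0.00809, 0.00809 and 0.00624 with RPL10A-STAMP against 0.00926, 0.0135 and 0.0138 with RPL22-STAMP. Every RPL22-STAMP value was above every RPL10A-STAMP value, as deposited and after scaling. The means were 0.00747 ± 0.00107 and 0.0122 ± 0.00255 (SD, n = 3 each), the log2 fold change was -0.52 (SE 0.14) and the adjusted p from limma was 0.0479. *Rps27a* (ENSMUSG00000020460, chr11:29545846-29548109, minus strand) encodes ubiquitin fused to a small subunit protein. Its EPR was 0.00166, 0.00225 and 0.00315 with RPL10A-STAMP against 0.00595, 0.00439 and 0.00764 with RPL22-STAMP. Again the variants did not overlap, with means of 0.00235 ± 0.000751 and 0.00599 ± 0.00162 (SD, n = 3 each), a log2 fold change of -0.49 (SE 0.13) and an adjusted p from limma of 0.0490. Both adjusted p values lay just under the threshold. When each library was left out in turn, *Rpl39* passed in none of the 6 fits and *Rps27a* only in the fit without RPL22-STAMP replicate 2, and the number of members that passed was 0 or 1.

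*Rpl10a* and *Rpl22* are the members whose reading frames the constructs carry. Reads and edits of the transgene and of the endogenous mRNA may therefore not be told apart in the coding part. The construct sequences are not given in the sources used here. *Rpl10a* (ENSMUSG00000037805, chr17:28328471-28331033, plus strand), the protein of the L1 stalk of the large subunit, had an EPR of 0.0332, 0.0432 and 0.0551 with RPL10A-STAMP against 0.0244, 0.0156 and 0.0126 with RPL22-STAMP. The variants did not overlap, and the means were 0.0438 ± 0.0110 and 0.0175 ± 0.00615 (SD, n = 3 each). Its log2 fold change of 0.68 (SE 0.25) was the highest of the members but missed the threshold (adjusted p from limma 0.113), and the coding sequence makes up 88.9% of its transcript. Without RPL22-STAMP replicate 1, in which its EPR was nearest to the RPL10A-STAMP values, the log2 fold change was 0.97 and the gene passed. *Rpl22* (ENSMUSG00000028936, chr4:152325742-152334071, plus strand), a large subunit protein that binds RNA and represses its paralog *Rpl22l1*, had an EPR of 0.00534, 0.0101 and 0.0110 with RPL10A-STAMP against 0.00544, 0.00795 and 0.00628 with RPL22-STAMP. These values overlapped, and the log2 fold change was 0.00 with a 95% confidence interval from -0.29 to 0.29.

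The genes most like these 2 by name or sequence were edited at low and overlapping levels. *Rpl10*, a late-joining protein of the large subunit, had an EPR of 0.00595, 0.00328 and 0.00573 with RPL10A-STAMP against 0.00348, 0.00755 and 0.00257 with RPL22-STAMP, with a 95% confidence interval of the log2 fold change from -0.41 to 0.31. *Rpl10* is named here after its values were seen, because its name is close to that of *Rpl10a*. *Rpl22l1* had an EPR of 0.00834, 0.00332 and 0.00713 with RPL10A-STAMP against 0.00565, 0.00329 and 0.00799 with RPL22-STAMP. Its log2 fold change was -0.09 (95% confidence interval -0.55 to 0.38).

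**Figure D4:**
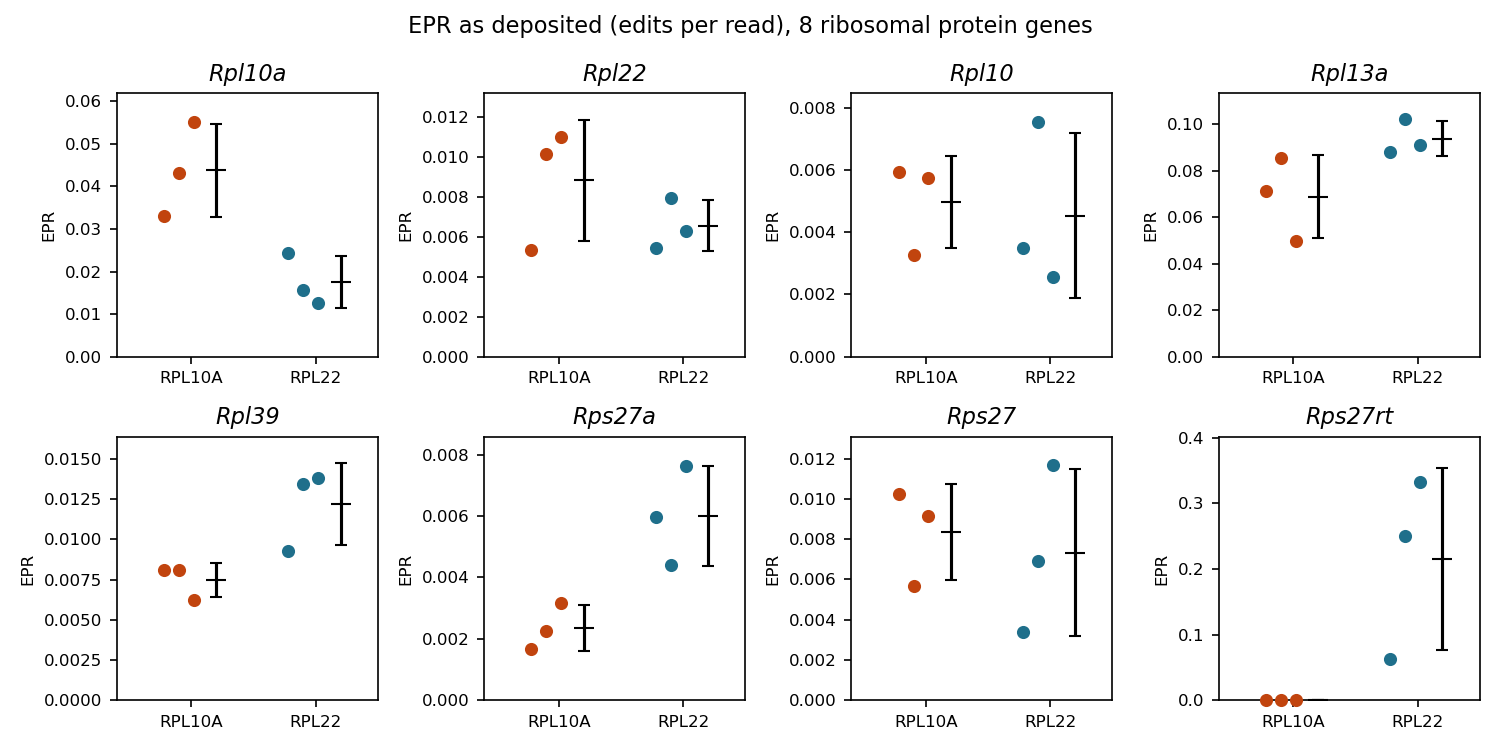
EPR as deposited (vertical axes, each from 0) of 8 ribosomal protein genes in the 3 RPL10A-STAMP and 3 RPL22-STAMP libraries (points), with mean and SD (bars). The variants do not overlap for *Rpl10a*, *Rpl13a*, *Rpl39*, *Rps27a* and *Rps27rt*, and overlap for *Rpl22*, *Rpl10* and *Rps27*.

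The other members at the ends of the order did not pass the threshold. On the positive side, *Rpl35*, a protein at the tunnel exit, had an EPR of 0.0279, 0.0136 and 0.0172 with RPL10A-STAMP against 0.00563, 0.010 and 0.00465 with RPL22-STAMP (log2 fold change 0.62, SE 0.25, adjusted p from limma 0.142). Its 3 RPL10A-STAMP values were all above the others, but 66.2% of its exon bases lie opposite exons of *Arpc5l* and *Wdr38*. *Rpl29*, a large subunit protein, read 0.0125, 0.0149 and 0.0243 against 0.00461, 0.00844 and 0.00824 (0.46, SE 0.15, adjusted p 0.0923 from limma). *Rps26*, which lies at the mRNA exit channel, read 0.0122, 0.00752 and 0.00839 against 0.00143, 0.00598 and 0.00289 (0.43, SE 0.18, adjusted p 0.157 from limma). *Rps19*, which is mutated in Diamond-Blackfan anaemia, read 0.00825, 0.00867 and 0.00747 against 0.00229, 0.00148 and 0.00437 (0.39, SE 0.14, adjusted p 0.103 from limma). For each of these 4 genes the lowest RPL10A-STAMP value was above the highest RPL22-STAMP value.

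On the negative side, *Rpl13a*, whose values are given above, had the lowest log2 fold change (-0.76, SE 0.24, adjusted p from limma 0.0766), with every RPL22-STAMP value above the RPL10A-STAMP values. *Rps21*, a small subunit protein, read 0.00334, 0.00124 and 0.00858 with RPL10A-STAMP against 0.00561, 0.00685 and 0.0119 with RPL22-STAMP, and the variants overlapped (-0.49, SE 0.20, adjusted p 0.143 from limma). *Rpl27a*, a large subunit protein, read 0.0135, 0.0240 and 0.0210 against 0.0220, 0.0263 and 0.0197 (-0.43, SE 0.15, adjusted p 0.108 from limma). *Rps2*, the small subunit protein of the original Ribo-STAMP fusion, read 0.0176, 0.0137 and 0.0173 against 0.0162, 0.0222 and 0.0205 (-0.42, SE 0.15, adjusted p 0.109 from limma). As deposited, the variants overlapped for *Rpl27a* and *Rps2*, and after scaling they did not.

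The stalk of the large subunit, which recruits elongation factors, is built from the products of *Rplp0*, *Rplp1* and *Rplp2*. All were edited at low levels, and only *Rplp0* was edited in all 6 libraries. *Rplp0* read 0.00418, 0.00444 and 0.00424 with RPL10A-STAMP against 0.00562, 0.00197 and 0.00220 with RPL22-STAMP, with a log2 fold change of 0.00 and a 95% confidence interval from -0.39 to 0.39. *Rplp1* read 0.00459, 0.0116 and 0.00231 against 0.00367, 0.00106 and 0. *Rplp2* read 0.00257, 0 and 0.00251 against 0.00251, 0.00407 and 0. *Rpsa*, a small subunit protein also known as a laminin receptor, had the widest interval of the members tested, with 0.01 added: it read 0.0396, 0.0146 and 0.00844 with RPL10A-STAMP against 0.0163, 0.0127 and 0.0143 with RPL22-STAMP, and its 95% confidence interval ran from -0.95 to 0.95.

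The 19 members that were not edited in all 6 libraries had no test in this fit. Of these, 10 were edited in 5 libraries, 4 in 4, 1 in 3 and 4 in none. The 4 listed at 0 in all libraries were *Rpl3l*, a paralog known from muscle, *Rpl10l* and *Rpl39l*, paralogs known from testis, and *Rpl36*, which is no such paralog and of whose transcript 98.5% of 50-base runs have an exact copy elsewhere in the genome. *Rps27rt* (ENSMUSG00000050621, chr9:114982366-114982739, minus strand), the intronless copy of *Rps27*, was listed at 0 in the 3 RPL10A-STAMP libraries and at 0.0625, 0.250 and 0.333 in the RPL22-STAMP libraries. It passed when the filter asked for edits in at least 3 libraries (adjusted p from limma 0.0153) and with no filter (0.0208), fits in which a gene listed at 0 throughout one variant owes its difference to those zeros, and no fold is given. *Rps27*, with the same coding sequence, read 0.0103, 0.00566 and 0.00916 with RPL10A-STAMP against 0.00341, 0.00690 and 0.0117 with RPL22-STAMP, and these overlapped. How many reads lay behind the *Rps27rt* ratios is unknown. *Rpl36al*, named after its values were seen, had the highest EPR of any member, 0.4, 0.167 and 0.5 with RPL10A-STAMP against 0.0909, 0.5 and 0 with RPL22-STAMP, while *Rpl36a* ranged from 0.00416 to 0.00796. Of the exon bases of *Rpl36al*, 24.5% are shared on the same strand with *Gm49383*.

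Exact copies elsewhere were common in the group. The share of a transcript's 50-base runs with an exact copy elsewhere in the genome had a median of 53.6% over the 85 members, and 49 had at least 50%. Of the 66 tested members, 39 (59.1%) had at least 50%, against 3.64% of all tested genes, whose median was 0. The authors' aligner kept reads with up to 10 locations, and how such reads were counted is not given in the sources used here. The level of the members was at most weakly related to this share: across the 66, Spearman's rho with mean scaled EPR was -0.09. The 39 members with at least 50% copied had a median above 10.3% of the tested genes, and the 27 with less had one above 11.0%. Those 27 had a median share of 40.0% copied, so this split does not set copied members against uncopied ones. The part of copies in the level of the members was not tested. *Rps3*, of which 3.44% is copied, read 0.00333 to 0.00690, and *Rpl8*, of which 7.98% is copied, read 0.00197 to 0.0198. *Rps15a*, of which 7.10% is copied, read 0.00508 to 0.0135. In mean scaled EPR, *Rps3* lay above 4.69% of the tested genes, *Rpl8* above 12.2% and *Rps15a* above 26.5%. These genes are named here for their low share of copies. The other features were also weakly related to level, with rho of -0.05 for transcript length, -0.02 for GC content, 0.08 for C content and 0.04 for the density of C between A or T, the sequence context in which APOBEC1 prefers to edit. The members' transcripts were short, with a median of 856 bases against 3385 for all tested genes, and had a density of 62.1 C between A or T per kilobase against 69.5.

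Coding length was set beside the log2 fold change, RPL10A-STAMP over RPL22-STAMP. It was not among the features planned, and it had the largest rho with log2 fold change across members of the features read. The others ran from -0.13 (density of C between A or T) to 0.12 (C content). Across the 66 members, rho between coding length and log2 fold change was 0.41, and it was 0.17 across 8039 tested genes. In the 22 members with the shortest coding sequences (75 to 411 bases) the median log2 fold change was -0.11, with 5 positive and 17 negative. In the 22 members from 420 to 582 bases the median was 0.015, with 11 positive and 11 negative, and in the 22 from 588 to 1257 bases it was 0.025, with 12 positive and 10 negative. Without *Rpl10a* rho was 0.40, and with one library left out at a time it ranged from 0.25 to 0.44. With the trend with transcript length removed, rho was 0.26 across members and 0.04 across all tested genes. GC content, by contrast, had a rho with log2 fold change of 0.08 across members and -0.46 across all tested genes. These are descriptions across genes that share libraries, and the part of coding length in the difference was not tested.

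**Figure D5:**
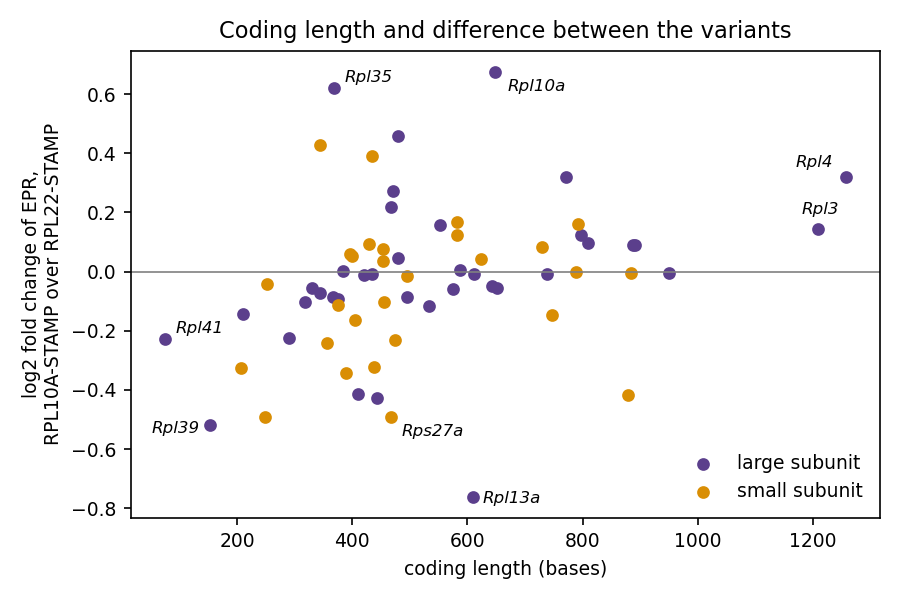
Coding length (horizontal axis, bases) and log2 fold change of EPR, RPL10A-STAMP over RPL22-STAMP (vertical axis), of the 66 ribosomal protein genes edited in all 6 libraries, by subunit. Most of the shortest coding sequences lie below 0, and *Rpl4* and *Rpl3*, the longest, lie above it.

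Members with and without a pyrimidine tract at the annotated start were set side by side. The 11 tested members with such a tract had a median level above 21.9% of the tested genes and the 41 with a window and no tract one above 9.81%. None of the 11 passed between the variants, where 14.3% of all tested genes did, and their median log2 fold change was -0.10, with 1 positive and 10 negative, beside 3921 positive and 4125 negative over all tested genes. The other 41 had a median of -0.005, with 18 positive and 23 negative.

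Other genes known for TOP mRNAs, most of them of the translation machinery, were read from a list of 18. The list also holds *Hnrnpa1*, *Nap1l1*, *Tpt1* and *Vim*, which are not counted to that machinery here. All 18 were edited in all 6 libraries. None passed between the variants in limma after adjustment, where 14.3% of all tested genes did, and 1 had an unadjusted p under 0.05. Their median level lay above 10.2% of the tested genes, close to the 10.7% of the ribosomal protein genes. *Eef1a1*, which brings aminoacyl-tRNA to the ribosome, read 0.00747, 0.00710 and 0.00750 with RPL10A-STAMP against 0.00480, 0.00469 and 0.00461 with RPL22-STAMP, and its log2 fold change, after scaling and with 0.01 added, was 0.09. *Fau*, which encodes a ubiquitin-like protein fused to a small subunit protein, read 0.00299 to 0.0106. *Eef1a1* and *Fau* were named from the list after their values were seen.

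Ribosome assembly factors, which build the subunits and leave them, were read from a list of 34. The list also holds *Polr1a*, *Polr1b*, *Ubtf* and *Rrn3*, which act in transcription by RNA polymerase I. Of the listed genes, 19 were edited in all 6 libraries. Of these, 2 passed (10.5%), both higher with RPL10A-STAMP, beside 14.3% of all tested genes in either direction and 8.51% in this one. Of the 19 log2 fold changes 14 were positive, with a median of 0.29, while 48.7% of all tested genes had a positive one. The 19 had a median GC content of 45.6%, against 48.9% for all tested genes. Across all tested genes, GC content had a rho of -0.46 with log2 fold change. The part of GC content in the signs of this list was not tested. *Mdn1*, the large ATPase that strips assembly factors from the large subunit, read 0.0285, 0.0491 and 0.0551 with RPL10A-STAMP against 0.00941, 0.0165 and 0.0120 with RPL22-STAMP. Its values did not overlap (log2 fold change 0.97, SE 0.16, adjusted p from limma 0.0106). *Bysl*, a factor for the small subunit, read 0.0486, 0.110 and 0.0507 against 0.0165, 0.0278 and 0.0167, again without overlap (1.04, SE 0.27, adjusted p 0.0443 from limma). With one library left out at a time, 0 to 2 of the listed genes passed, and none passed without RPL10A-STAMP replicate 3. Under 18 alternative ways of processing, *Bysl* missed the threshold in 10 and *Mdn1* in 1. The adjusted p from limma of *Bysl* reached 0.121 in these fits. Both genes kept their direction in all 18.

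In the whole series, 9892 to 11195 genes were edited per library. As a check of the label, all 8 neuronal markers were edited in all 6 libraries, as were 4 of 5 astrocyte and 1 of 5 oligodendrocyte lineage markers, while no microglial marker was and the 3 endothelial markers were listed at 0 throughout. The EPR summed over a list was 0.178 to 0.225 per library for the neuronal, 0.120 to 0.245 for the astrocyte, 0.0175 to 0.115 for the oligodendrocyte lineage and 0 to 0.0714 for the microglial markers. The defining markers *Mog*, *Tmem119*, *Aif1*, *Csf1r*, *Cldn5*, *Pecam1* and *Flt1* were at 0 in all libraries. EPR is no RNA level, fewer cells of a type and less RNA per cell cannot be told apart in bulk libraries, and the part of other cells in the results was not tested.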

How the data were processed

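The 6 bulk RNA-seq libraries, 3 per variant, were made with a stranded mRNA kit. Single-end reads were trimmed with cutadapt and aligned to mm10 with STAR, with up to 10 locations per read. C-to-U edits were called with SAILOR and reads per gene counted with featureCounts. The authors deposited the ratio of edits to reads per gene, with no normalization between libraries. Neither edits nor reads were used here, so the depth behind a ratio is unknown, no counting error is given, and precision rests on the spread between 3 libraries. The gene annotation is not given in the sources used here. Replicates are called biological in the study's methods and technical in its text, so p values may measure technical spread only.

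Of the 31053 identifiers, 31011 were found in GENCODE mouse release 21, from which names, subunits, coordinates and 1 principal transcript per gene were taken. Groups came from the sample labels. Scaled values, log2(EPR + 0.01), were fitted with limma 3.58.1 (R 4.3.3, variance trend) over the 8046 genes edited in all 6 libraries, with Benjamini-Hochberg adjustment at 0.05, and the test was checked on simulated data. Medians over members are descriptions. Exact copies were counted as 50-base runs of the transcript found elsewhere in GRCm38. Start windows came from RefSeq promoters (GRCm38.p6). The tract searched was a C at the annotated start followed by C or T, at least 5 bases in all, on the gene's strand.

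Named are *Rpl10a*, *Rpl22*, *Rps2*, *Rpl22l1*, *Rplp0*, *Rplp1*, *Rplp2*, *Rpsa*, members that passed, the 5 highest and 5 lowest fold changes, the 8 highest and 5 lowest levels, members listed at 0 in 1 variant and edited in at least 2 libraries of the other, and list genes that passed. Members and lists were chosen with earlier results of these data known. Alternatives covered pseudocount, filter, scaling, replicate block, trends with GC content and length, variance model, copied members and each library left out. The value of 1 listed gene is not reported here.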

Additional observations from a re-analysis of the deposited data

How the results depend on the processing

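The number of ribosomal protein genes that passed, 2 in the reported fit, was 1 with a pseudocount of 0.001 or 0.05, with none (added after seeing the data), with genes edited in at least 3 libraries, with no filter, without the variance trend and without members copied in at least 50%. With either looser filter the member that passed was *Rps27rt*, which had no test in the reported fit, and neither *Rpl39* nor *Rps27a* passed. The number was 4 with the trend with transcript length removed, all higher with RPL10A-STAMP, and 0 in the fit with the replicate block, with or without the GC trend removed. It stayed 2 with upper-quartile scaling, with GC trend removed alone (*Rps19* and *Rpl29*, both higher with RPL10A-STAMP) and without -like paralogs. With no scaling it was 3 (*Rpl35*, *Rps19* and *Rpl10a*, all higher with RPL10A-STAMP), where the median log2 fold change of all genes was 0.18 and that of members 0.12. Leaving out a library gave 0 to 1. *Rpl39* and *Rps27a* missed the threshold under 15 and 14 of 18 alternatives and kept their direction in all 18. The same-numbered libraries did not deviate together (correlations 0.0437, 0.0464 and -0.00546), so the numbers were not read as pairing. The median log2 fold change of members was 0.046 with the GC trend removed, with or without the block, and 0.15 with the length trend removed, and -0.052 to 0.027 with a library left out. Over all genes, 1149 passed in the reported fit, 754 with genes edited in at least 3 libraries, 569 with no filter, 603 with the block, 698 with the GC trend removed, 223 with both, and 369 to 873 with a library left out. The causes of these changes were not tested.

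For large subunit members, 1 passed in the reported fit, 0 with a pseudocount of 0.001 or none, with either looser filter and with the block (GC trend removed or not), 2 with no scaling, 3 with the length trend removed, and 0 to 1 with a library left out. For small subunit members, 1 passed, and 0 did with a pseudocount of 0.05, with the block (GC trend removed or not), without the variance trend and without copied members, and 0 to 1 with a library left out. None of the 18 other TOP genes passed in any of these fits. Genes of the assembly factor list that passed went from 2 to 1 with a pseudocount of 0.05, no filter or upper-quartile scaling. They went to 5 with no scaling and to 0 to 2 with a library left out. Set against the median edited gene, the members' median was 0.54 with RPL22-STAMP when genes edited in at least 3 libraries were used, 0.442 to 0.490 with an RPL10A-STAMP library left out and 0.489 to 0.516 with an RPL22-STAMP library left out. With genes listed at 0 included, the median gene is 0 and the ratio has no value.

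Several log2 fold changes near 0 changed sign. *Rpl22* was -0.0071 with a pseudocount of 0.001, -0.011 with none, -0.034 with upper-quartile scaling, -0.068 with the GC trend removed (block or not) and -0.042 to 0.082 with a library left out. *Rplp0* was 0.095 with a pseudocount of 0.001, 0.18 with none, 0.12 with no scaling, 0.18 with the GC trend removed (block or not), 0.13 with the length trend removed and -0.11 to 0.19 with a library left out. *Rpsa* was 0.035 with a pseudocount of 0.05, 0.21 with no scaling, 0.083 with the GC trend (block or not) and 0.082 with the length trend removed, and -0.48 to 0.33 with a library left out. *Rpl22l1* was 0.054 with no scaling, 0.14 with the length trend removed and -0.25 to 0.052 with a library left out. *Rpl30* was 0.18, 0.15 and -0.15 to 0.017, and *Rpl15* 0.23, 0.079 and -0.068 to 0.040, in the same order. *Rpl11* was 0.0056 with no scaling, 0.069 with the GC trend removed (block or not) and 0.074 with the length trend removed. With a library left out, *Rpl21* ranged from -0.033 to 0.093, *Rps13* from -0.013 to 0.16 and *Rps14* from -0.066 to 0.13.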
